A study of Mus musculus with 28 samples.

Results

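The Toll-like receptor genes Tlr1, Tlr2, Tlr4, Tlr6, Tlr7, Tlr8 and Tlr9 were followed with Cd14, Ly96 and Myd88 while Pre-B cells were converted into macrophages. These 10 genes were chosen by symbol, with earlier results of these data known. Each of the 10 symbols matched 1 row among the 55450 genes in the expression table. The cells were C10, a mouse Pre-B line derived from HAFTL cells, and every sample, uninduced cells included, carried the C/EBPαER transgene, which fuses rat C/EBPα to the hormone-binding part of the estrogen receptor. Cells were collected uninduced (0h) and 1h, 12h or 48h after the start of induction, in which 100 nM β-estradiol, IL-3 and CSF-1 were present. RNA-seq was available for 3 biological replicates at each time point, and Promoter Capture Hi-C, which lists the DNA fragments found in contact with promoter fragments, for 1 list per time point made from 2 merged replicates. All samples came from 1 cell line, no vehicle or transgene-free samples were analysed here, and the effects of β-estradiol, C/EBPαER, IL-3, CSF-1 and time in culture cannot be told apart.

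Toll-like receptors are membrane proteins that bind molecules of microbes. TLR1, TLR2, TLR4 and TLR6 sit mainly on the cell surface, where TLR2 pairs with TLR1 or TLR6 to bind bacterial lipoproteins and TLR4 binds lipopolysaccharide together with MD-2, the product of Ly96. TLR7, TLR8 and TLR9 sit in endosomes and bind nucleic acids. CD14 hands lipopolysaccharide and other ligands to these receptors, and MYD88 is the adaptor that most of them share. Macrophages and B-lineage cells both use Toll-like receptors, while CD14 is a classic marker of monocytes and macrophages.

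RNA values were TPM (transcript abundance scaled to transcript length and to a fixed library total), which keep no sequencing depth, so depth is unknown from these values and counting error could not be separated from the spread between replicates. A pair of overlapping genes at a ribosomal RNA locus took 70.3% to 82.9% of the TPM of each library. Among the 16415 genes tested (those whose TPM averaged 0.1 or more across libraries), the median log2 fold changes of 1h, 12h and 48h against 0h were 0.59, 0.34 and -0.18 on the TPM as deposited, and 0.02, 0.07 and 0.07 after median-of-ratios scaling, which sets the typical gene equal between libraries. Scaled values are therefore given where they change a count, or the call or direction of a member described. The summed TPM of 8 Pre-B markers was 293 to 333 at 0h and 26.9 to 38.4 at 48h, with 7 of the 8 still at a mean of at least 1. The sum of 7 macrophage markers was 3.34 to 4.61 at 0h, 187 to 272 at 12h and 154 to 207 at 48h, where Adgre1 was the 1 marker with a mean below 1. At 12h, 4 of the 7 averaged at least 1. Lyz2 made up most of the sum, with 171 to 253 TPM at 12h and 94.7 to 122 at 48h. Unlike Lyz2, each of Csf1r, Itgam, Cd68, Fcgr1 and Msr1 was higher in every 48h library than in any 12h library, and Adgre1 overlapped. The sum of 7 neutrophil markers was at most 0.22 at 0h and 1h, 8.32 to 13.7 at 12h and 1.33 to 3.43 at 48h, with Mpo, S100a9 and Retnlg at 0 throughout. Dendritic cell and T and NK cell lists did not exceed 0.39, and mast cell and fibroblast lists were at 0. The part of the cell type markers in the results below was not tested, and in these bulk samples fewer cells of a type and less RNA per cell cannot be told apart.

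The promoter sequences of the members differed in the motifs they held. Of the 10 members, 6 had an entry in the RefSeq promoter table (GRCm38.p6, 250 bases before to 50 bases after the start). Cd14, Tlr4, Tlr7 and Ly96 had none. Shown here are the bases of each upstream window that precede its first base in an annotated exon, or the whole where there is none. They are given for the early receptor Tlr2, its partners Tlr1 and Tlr6 and the late receptors Tlr8 and Tlr9. Both strands were searched for GAGGAAGT (a PU.1 core), TTGCNNAA (a C/EBP core) and the kappa B consensus, the site of NF-kappaB, and matches are in capitals. The windows are, in this order, chr3:83841768-83841858, chr5:64933564-64933808, chr5:64959167-64959416, chrX:167264330-167264579 (these 4 on the minus strand) and chr9:106222348-106222597 (plus strand).
Tlr2: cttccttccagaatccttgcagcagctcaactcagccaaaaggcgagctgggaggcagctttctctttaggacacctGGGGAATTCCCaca
Tlr1: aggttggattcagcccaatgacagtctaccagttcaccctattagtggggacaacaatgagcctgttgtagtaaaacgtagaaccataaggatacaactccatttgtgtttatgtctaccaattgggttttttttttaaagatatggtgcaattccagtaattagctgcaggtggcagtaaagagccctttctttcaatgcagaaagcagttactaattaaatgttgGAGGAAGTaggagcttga
Tlr6: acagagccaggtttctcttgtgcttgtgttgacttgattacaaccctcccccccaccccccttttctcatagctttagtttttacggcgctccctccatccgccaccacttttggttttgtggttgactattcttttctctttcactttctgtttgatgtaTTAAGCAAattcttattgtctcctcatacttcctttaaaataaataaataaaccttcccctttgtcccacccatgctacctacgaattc
Tlr8: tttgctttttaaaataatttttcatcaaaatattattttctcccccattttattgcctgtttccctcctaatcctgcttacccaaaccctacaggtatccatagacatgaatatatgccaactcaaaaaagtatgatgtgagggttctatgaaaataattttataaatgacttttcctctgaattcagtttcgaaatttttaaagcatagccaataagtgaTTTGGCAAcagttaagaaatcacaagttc
Tlr9: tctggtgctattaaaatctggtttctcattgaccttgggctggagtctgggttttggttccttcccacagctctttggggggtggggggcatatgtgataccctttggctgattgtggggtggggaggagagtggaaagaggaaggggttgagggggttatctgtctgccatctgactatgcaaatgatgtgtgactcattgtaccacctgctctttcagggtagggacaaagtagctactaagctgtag
The capitals in Tlr2 are overlapping kappa B matches, a motif held by 4.51% of the 32851 windows in the table. The capitals in Tlr1 are a PU.1 core at position -23 from the RefSeq start (3.2% of windows), and those in Tlr6 and Tlr8 are C/EBP cores at -89 and -29 (10.8% of windows). Tlr9 had no match in the bases shown, nor had the like stretches of Myd88 and of the other RefSeq start of Tlr6, which are not printed. Further matches lay in the part of 3 windows that is not shown, a kappa B match in Tlr2 at -8, a C/EBP core in Tlr8 at 18 and a PU.1 core in Tlr9 at 10. The Tlr6 window printed lies inside the gene, upstream of 1 of its RefSeq starts, and overlaps no annotated exon. A match describes the letters of the window and is not evidence of a bound site.

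At 48h, 9 of the 10 members were called higher than at 0h (limma on log2(TPM + 0.1) with Benjamini-Hochberg adjustment, adjusted p under 0.05), where 15.9% of the genes tested were called higher. After median-of-ratios scaling it was also 9, against 24.5% of the genes tested. Ly96 was the exception in both. Cd14, Tlr7 and Tlr8, at 0 in each 0h library, could only rise against 0h. Of the 7 members above 0 at 0h, 6 were called higher at 48h on the TPM. The members were chosen with earlier results of these data known, so counts of members describe these data and do not test the group. At 1h, 3 members were called higher (Cd14, Tlr2 and Myd88), against 24.1% of the genes tested, and Tlr9 was called lower, against 1.41%. After scaling, Cd14 and Tlr2 were higher (5.42% of genes) and Tlr9 lower (4.92%). At 12h, 5 members were called higher (Cd14, Tlr2, Tlr4, Tlr6 and Myd88), against 22.3%, and 4 after scaling, without Tlr6 (16%). No member was called lower by limma at 12h (7.82% of genes) or 48h (27.2%), and none had an unadjusted p under 0.05 in that direction on the TPM. Between 1h and 12h, 5 members were called higher (Cd14, Tlr2, Tlr4, Tlr6 and Tlr9), against 6.98% of genes. After scaling Myd88 joined them, against 11.3%. None was lower on the TPM (15% of genes lower) or after scaling (8.77%). For the 7 members with TPM above 0 at 0h the median log2 fold changes were -0.31, 1.16 and 1.88 at the 3 time points, beside the medians over the genes tested given above. No fold change against 0h is given for Cd14, Tlr7 and Tlr8, which were listed at 0 in each 0h library, while none of 12 housekeeping genes checked was at 0 in any library.

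**Figure D1:**
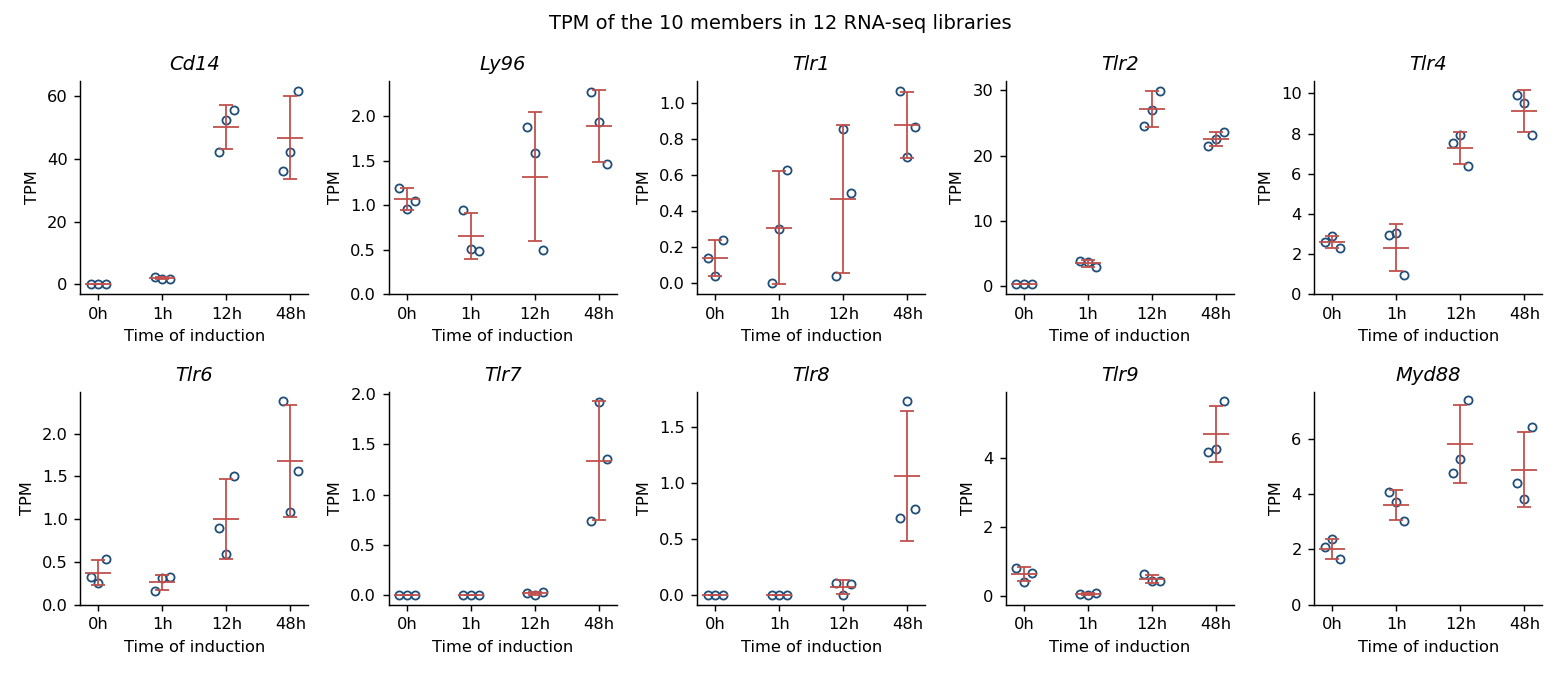
TPM of each member (vertical axis, linear, own scale per gene) at 0h, 1h, 12h and 48h of induction (horizontal axis). Circles are the 3 libraries, bars the mean and SD. Cd14 and Tlr2 reached 42.19 to 55.60 and 24.52 to 29.96 TPM at 12h, whereas Tlr9 stood at 0.82 or below until 12h and at 4.16 to 5.63 at 48h.

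Cd14, the co-receptor, which lies on chromosome 18, had the highest level of the 10 at 12h and 48h. It was listed at 0 in the 3 libraries of 0h and at 2.23, 1.62 and 1.81 TPM at 1h, 42.19, 52.17 and 55.60 at 12h, and 36.18, 42.18 and 61.60 at 48h. Each library after induction lay above each library before it, and the 12h libraries did not overlap those of 1h. The adjusted p values of 1h, 12h and 48h against 0h were 1.1e-06, 1.1e-09 and 2.2e-10 (limma, Benjamini-Hochberg). Between 1h and 12h the mean rose 26.5-fold, from 1.89 ± 0.312 (SD, n = 3) to 50.0 ± 6.97 (SD, n = 3), with a log2 fold change of 4.66 ± 0.22 (SE) and an adjusted p of 3.5e-07 (limma, Benjamini-Hochberg). From 12h to 48h the log2 fold change was -0.13 ± 0.22 (SE) on the TPM and the libraries overlapped. After scaling it was 0.62 with an adjusted p of 0.023 (limma, Benjamini-Hochberg), so the direction of this step depended on the scaling.

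Ly96, which encodes the lipopolysaccharide-binding partner of TLR4, was the member that did not pass the test in any of the 5 comparisons, on the TPM or after scaling. The gene lies at chr1:16688051-16709611 on the plus strand (GRCm38, as are all gene positions). It stood at 1.20, 0.96 and 1.05 TPM at 0h, 0.95, 0.51 and 0.49 at 1h, 1.88, 1.59 and 0.50 at 12h, and 2.28, 1.94 and 1.47 at 48h. The 48h libraries all lay above those of 0h and the 1h libraries all below, but the third 12h library was as low as 1h replicates 2 and 3. The log2 fold change at 48h against 0h was 0.76 ± 0.42 (SE), with an adjusted p of 0.17 (limma, Benjamini-Hochberg). Without that 12h library, which enters through the shared estimate of the spread, the adjusted p was 0.047, and with only the 6 libraries of 0h and 48h it was 0.045.

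Tlr2, the receptor for bacterial lipoproteins, lay above Cd14 at 0h and 1h and below it at 12h and 48h, with no overlap at any of them. It lies at chr3:83836272-83841767 on the minus strand. Its TPM were 0.26, 0.28 and 0.36 at 0h, 3.83, 3.69 and 2.90 at 1h, 24.52, 26.93 and 29.96 at 12h, and 21.41, 22.56 and 23.63 at 48h. No libraries overlapped between any of these time points. The log2 fold change against 0h was 3.16 ± 0.17 (SE) at 1h, 6.09 ± 0.17 (SE) at 12h and 5.83 ± 0.17 (SE) at 48h, with adjusted p of 1.6e-06, 1.7e-09 and 8.4e-10 (limma, Benjamini-Hochberg). The mean was 11.6-fold higher at 1h and 90.5-fold higher at 12h than at 0h. From 12h to 48h the log2 fold change was -0.26 ± 0.17 (SE) with an adjusted p of 0.26, but 0.48 with an adjusted p of 0.045 after scaling (limma, Benjamini-Hochberg).

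Tlr1 and Tlr6, the partners of Tlr2, stayed below it in TPM after induction. They are neighbours on the minus strand of chromosome 5, Tlr1 at chr5:64924679-64933563 and Tlr6 at chr5:64952031-64960097. Tlr6 was at 0.33, 0.26 and 0.54 TPM at 0h, 0.16, 0.31 and 0.32 at 1h, 0.90, 0.59 and 1.51 at 12h, and 2.38, 1.09 and 1.57 at 48h. Its 12h and 48h libraries lay above those of 0h. The log2 fold change was 1.16 ± 0.40 (SE) at 12h (adjusted p 0.046, limma, Benjamini-Hochberg) and 1.88 ± 0.40 (SE) at 48h (adjusted p 0.0023). The 12h call was lost after scaling (adjusted p 0.13) and without any 1 of 7 libraries (0h replicates 1 and 2, 1h replicates 2 and 3, 12h replicates 1 and 3 and 48h replicate 3, adjusted p up to 0.16). It was also lost with a pseudocount of 0.01 or 1, with no filter and with only the 6 libraries compared (adjusted p 0.055, 0.074, 0.084 and 0.10).
Tlr1 was at 0.14, 0.04 and 0.24 TPM at 0h, 0, 0.30 and 0.63 at 1h, 0.04, 0.86 and 0.50 at 12h, and 1.07, 0.70 and 0.87 at 48h. The 48h libraries lay above those of 0h, those of 1h stayed below 48h and spread around 0h, and those of 12h reached both ranges. At 48h the log2 fold change was 2.1 ± 0.79 (SE), with an adjusted p of 0.049 (limma, Benjamini-Hochberg). This call was lost without any 1 library of 0h or 48h, without 1h replicate 2 and without 12h replicate 3, with adjusted p up to 0.15. It was also lost with a pseudocount of 0.01 (adjusted p 0.14), with no filter (0.086) and with a spread estimate that ignored expression level (0.056). Tlr1 and Tlr6 are paralogs: 7.89% of the 100-base stretches of Tlr1 transcripts and 7.09% of those of Tlr6 were found in the other gene, so the division of reads between them is uncertain.

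Tlr4, the lipopolysaccharide receptor, had the highest mean of the members before induction and was first called higher at 12h. It lies at chr4:66827584-66930284 on the plus strand. Its TPM were 2.61, 2.89 and 2.30 at 0h, 2.94, 3.03 and 0.97 at 1h, 7.53, 7.95 and 6.37 at 12h, and 9.91, 9.51 and 7.95 at 48h. The third 1h library was low and the other 1h libraries lay just above those of 0h, whereas each library of 12h and 48h lay above both. The log2 fold change was -0.31 ± 0.34 (SE) at 1h (adjusted p 0.53), 1.45 ± 0.34 (SE) at 12h (adjusted p 0.0083) and 1.77 ± 0.34 (SE) at 48h (adjusted p 0.0013, limma, Benjamini-Hochberg). The mean at 48h was 3.51-fold that at 0h. Without the low 1h library the log2 fold change at 1h was 0.20.

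The endosomal receptors Tlr7, Tlr8 and Tlr9 were the 3 members called higher at 48h than at 12h, against 4.1% of the genes tested. None was called lower (31.7% of genes) or had an unadjusted p under 0.05 in that direction. Tlr7 (chrX:167304929-167330558) and Tlr8 (chrX:167242696-167264329) are neighbours on the minus strand. Tlr7, a receptor for single-stranded RNA, was listed at 0 in the 6 libraries of 0h and 1h, at 0.02, 0 and 0.03 TPM at 12h, and at 0.74, 1.92 and 1.35 at 48h. Tlr8, a related receptor, was listed at 0 in the same 6 libraries, at 0.11, 0 and 0.10 TPM at 12h, and at 0.69, 1.73 and 0.77 at 48h. For both genes the 48h libraries lay above all others, and the second 48h library was the highest. Both averaged 0.1 TPM or more, and so were tested, only through these 48h libraries, which fixed the direction of their calls. Against 12h the adjusted p was 5.8e-05 for Tlr7 and 6.3e-04 for Tlr8 (limma, Benjamini-Hochberg). The log2 fold changes of this step, 3.54 ± 0.40 (SE) and 2.74 ± 0.44 (SE), depend on the 0.1 added because a 12h library was at 0.

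Tlr9, the receptor for unmethylated CpG DNA, fell at 1h and rose at 48h. It lies at chr9:106222598-106226883 on the plus strand. Its TPM were 0.82, 0.42 and 0.67 at 0h, 0.08, 0.04 and 0.10 at 1h, 0.65, 0.44 and 0.44 at 12h, and 4.16, 4.27 and 5.63 at 48h. The 1h libraries lay below and the 48h libraries above those of every other time point, and the 12h libraries overlapped those of 0h. Against 0h the log2 fold change was -2.06 ± 0.29 (SE) at 1h (adjusted p 7.2e-04), -0.25 ± 0.29 (SE) at 12h (adjusted p 0.56) and 2.73 ± 0.29 (SE) at 48h (adjusted p 1.5e-05, limma, Benjamini-Hochberg). From 12h to 48h the mean rose 9.19-fold, with a log2 fold change of 2.98 ± 0.29 (SE) and an adjusted p of 2.3e-05 (limma, Benjamini-Hochberg). The fall at 1h and the rise at 48h kept their calls in each of the 12 fits that left out 1 library. After scaling, 7 members were called higher at 48h than at 12h and none lower, against 10.5% and 11.9% of the genes tested, and the 4 added were Cd14, Tlr2, Tlr4 and Tlr6.

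Myd88, the shared adaptor (chr9:119335934-119341411, minus strand), was present before induction at 2.07, 2.37 and 1.65 TPM. It was at 4.08, 3.72 and 3.03 TPM at 1h, 4.76, 5.27 and 7.41 at 12h, and 4.39, 3.83 and 6.41 at 48h. All libraries after induction lay above those of 0h, and those of 12h and 48h overlapped. Against 0h the log2 fold changes were 0.80 ± 0.25 (SE) at 1h (adjusted p 0.035), 1.46 ± 0.25 (SE) at 12h (adjusted p 0.0011) and 1.20 ± 0.25 (SE) at 48h (adjusted p 0.0019, limma, Benjamini-Hochberg). The 1h call was lost after scaling, where the log2 fold change was 0.17 with an adjusted p of 0.65, and without 0h replicate 1 or 3 or 1h replicate 1 or 2, with adjusted p up to 0.12. A spread estimate that ignored expression level put it at 0.0502. Exons of Myd88 overlap those of Acaa1a on the opposite strand (4.69% of its 100-base stretches), and the library kit does not mark strand, so reads from this overlap cannot be told apart.

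**Figure D2:**
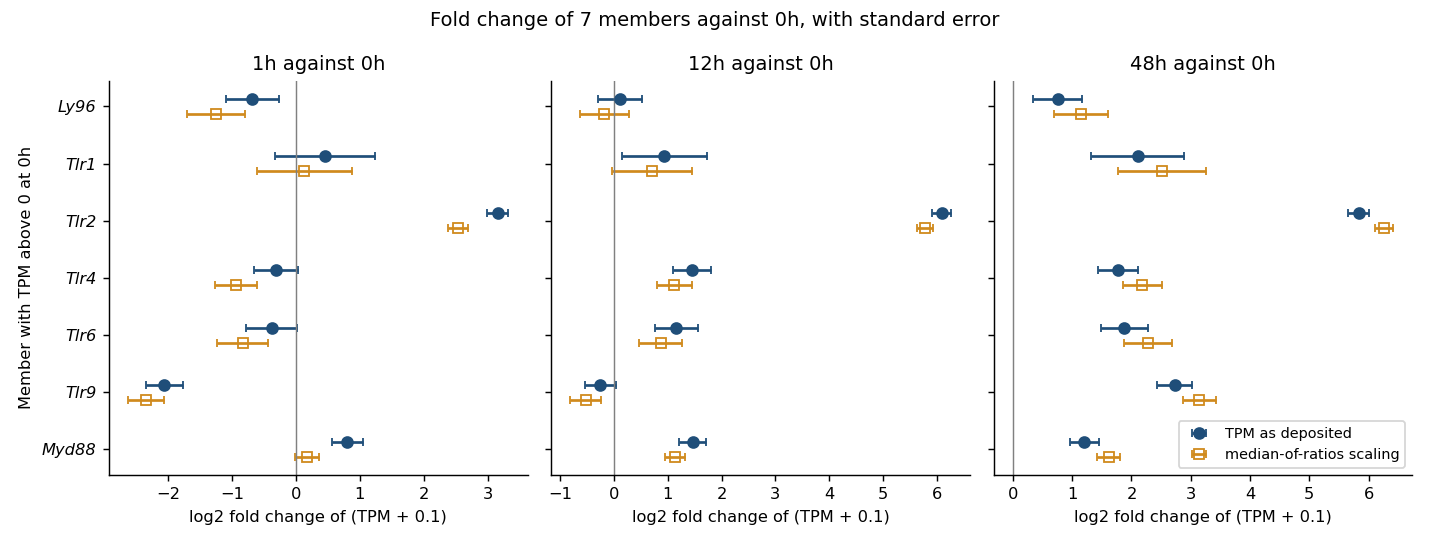
Log2 fold change of (TPM + 0.1) against 0h (horizontal axis, with standard error) for the 7 members with TPM above 0 at 0h (vertical axis), at 1h, 12h and 48h. Filled circles are TPM as deposited and open squares values after median-of-ratios scaling. Tlr2 was highest in each panel, Tlr9 moved from -2.06 at 1h to 2.73 at 48h, and Ly96 changed sign with the scaling at 12h.

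The order of the members by mean TPM changed during the conversion. At 0h it ran Tlr4, Myd88, Ly96, Tlr9, Tlr6, Tlr2 and Tlr1, followed by the 3 genes at 0. The libraries of Tlr4 and Myd88, of Tlr9 and Tlr6 and of Tlr6 and Tlr2 overlapped and did not differ beyond their spread. At 1h Myd88, Tlr2, Tlr4 and Cd14 led with means from 3.61 to 1.89 TPM, each overlapping the next. At 12h Cd14 led Tlr2 (27.1 ± 2.73, SD, n = 3), which led Tlr4 (7.28 ± 0.818, SD, n = 3), and the libraries of Cd14 and Tlr2 and of Tlr2 and Tlr4 did not overlap. At 48h Cd14 (46.7 ± 13.3, SD, n = 3), Tlr2 (22.5 ± 1.11, SD, n = 3), Tlr4 (9.12 ± 1.04, SD, n = 3) and Myd88 (4.88 ± 1.36, SD, n = 3) stood apart from each other. Myd88 overlapped Tlr9 (4.69 ± 0.819, SD, n = 3), and the last 5, from Ly96 to Tlr1, each overlapped the next.

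Likeness between genes was described by Pearson r of log2(TPM + 0.1) over the 12 libraries, which share 4 time points and their library totals. Cd14 and Tlr2 had an r of 0.997 with each other, and the gene most like each among 9325 candidates that were not members was Il1b, which encodes the cytokine interleukin-1β (r = 0.997 and 0.994). Tlr7 and Tlr8 had an r of 0.977, and their nearest genes were the interferon-inducible Ifi206 (0.987) and Tgtp1 (0.978). The gene nearest Tlr9 was Oasl1, also interferon-inducible (0.942). Myd88 was nearest to Cebpb (0.963), which encodes the transcription factor C/EBPβ, Tlr6 to Alox5ap (0.954), needed for leukotriene synthesis, and Tlr4 to the inflammasome gene Nlrp1b (0.945). The nearest genes of Ly96 (Gm8226, 0.833) and Tlr1 (Trim21, 0.802) had lower r.

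Of 54 other pathway genes in 7 lists, 44 passed the filter on low values, and at 48h 21 were called higher and 2 lower than at 0h, against 15.9% and 27.2% of the genes tested. After scaling the counts were 29 and 1, against 24.5% and 22%. Their median log2 fold change was 0.55, beside -0.18 over the genes tested. The 38 that were not at 0 in every 0h library had a median of 0.42, and 15 of them were called higher on the TPM. These lists, too, were chosen with earlier results of these data known. At 1h 18 were higher and 3 lower on the TPM (24.1% and 1.41% of the genes tested) and 6 and 3 after scaling (5.42% and 4.92%). At 12h 24 were higher and 1 lower on the TPM (22.3% and 7.82%) and 18 and 1 after scaling (16% and 14.5%).

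Among the other Toll-like receptors, Tlr3 and Tlr13, both endosomal RNA receptors, passed the filter of 5 listed, and both were called higher at 48h than at 0h and than at 12h. Tlr13 was listed at 0 at 0h and 1h, was at 0.13, 0.09 and 0.05 TPM at 12h and at 1.28, 1.94 and 1.70 at 48h (adjusted p against 12h 3.6e-05, limma, Benjamini-Hochberg). Tlr3 was at 0.50, 0.19 and 0.19 TPM at 0h, 0.04, 0.34 and 0.01 at 1h, 0.15, 0.62 and 0.12 at 12h and 2.95, 2.35 and 1.52 at 48h (adjusted p against 12h 0.0041). Each of the 5 endosomal receptor genes tested, Tlr3, Tlr7, Tlr8, Tlr9 and Tlr13, was thus called higher at 48h than at 12h. This held on the TPM (4.1% of the genes tested) and after scaling (10.5%). After scaling Cd14, Tlr2, Tlr4 and Tlr6 were also called higher in this step, so it was not particular to the endosomal receptors there. However, Tlr7, Tlr8 and Tlr13 averaged 0.1 TPM or more only through their 48h libraries, so the filter fixed their direction. It did not fix that of Tlr3 and Tlr9. Tlr11 and Tlr12, listed at 0 in each library, and Tlr5 did not pass the filter.

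Of the receptor partners and chaperones, 3 of 6 tested were called higher at 48h, on the TPM (15.9% of the genes tested) and after scaling (24.5%). Of the 5 above 0 at 0h, 2 were called higher on the TPM. At 1h, 2 of the 6, Unc93b1 and Cd180, were called lower (1.41% of genes) and 1 higher (24.1%) on the TPM. Cd180, which the naming rule given below did not pick, averaged 6.65 TPM at 0h, 1.63 at 12h and 7.58 at 48h. It was called lower at 12h (adjusted p 8.6e-04) and not called at 48h (adjusted p 0.64, limma, Benjamini-Hochberg). Unc93b1, which carries endosomal receptors out of the endoplasmic reticulum, was at 9.83, 12.30 and 7.98 TPM at 0h, 7.18, 6.20 and 5.37 at 1h, 15.72, 15.60 and 16.54 at 12h and 33.78, 43.53 and 51.11 at 48h. Like Tlr9, it was called lower at 1h (log2 fold change -0.66 ± 0.20, SE, adjusted p 0.034) and higher at 48h (2.08 ± 0.20, SE, adjusted p 6.8e-06, limma, Benjamini-Hochberg). Cd36, a scavenger receptor that helps TLR2 with TLR6, was at 0.14 to 1.53 TPM through 12h and at 13.72, 15.71 and 11.56 at 48h (adjusted p against 0h 2.2e-05). Ly86, the MD-1 partner of CD180, was listed at 0 at 0h and reached 0.34, 0.61 and 0.72 TPM at 48h (adjusted p 5.9e-04). Ly86 averaged 0.1 TPM or more only through these 48h libraries, so the filter fixed the direction of its call.

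Of 3 adaptors tested, 2 were called higher at 48h, on the TPM (15.9% of the genes tested) and after scaling (24.5%). These were Ticam1, the TRIF adaptor of TLR3 and TLR4, and Tirap, which bridges TLR2 or TLR4 and MYD88. Their log2 fold changes were 1.66 ± 0.39 (SE) and 1.05 ± 0.35 (SE), with adjusted p of 0.0047 and 0.032 (limma, Benjamini-Hochberg). Of 16 kinases and ubiquitin ligases, 4 were higher and 1 lower at 48h on the TPM, against 15.9% and 27.2% of the genes tested, and 8 higher and 0 lower after scaling, against 24.5% and 22%. Irak2, a kinase of the MYD88 complex, had a log2 fold change of 3.21 ± 0.36 (SE), Ikbke, an IKK-related kinase, 2.67 ± 0.32 (SE), and Ikbkb, the IKKβ kinase, 0.52 ± 0.17 (SE). Tab1, which activates the kinase TAK1, fell by 1.35 on the log2 scale, with an adjusted p of 0.018 that became 0.051 after scaling (limma, Benjamini-Hochberg). Of 6 negative regulators, Tnfaip3, which encodes the ubiquitin-editing enzyme A20, and Irak3, an inhibitory member of the IRAK family, were called higher, with log2 fold changes of 2.72 ± 0.25 (SE) and 1.44 ± 0.19 (SE). These are 2 of 6, against 15.9% of the genes tested. After scaling 5 of the 6 were called higher, against 24.5%. Those added were Nfkbia (adjusted p 0.0063), Cyld (0.037) and Tollip (0.045, limma, Benjamini-Hochberg), named after their values were seen.

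**Figure D3:**
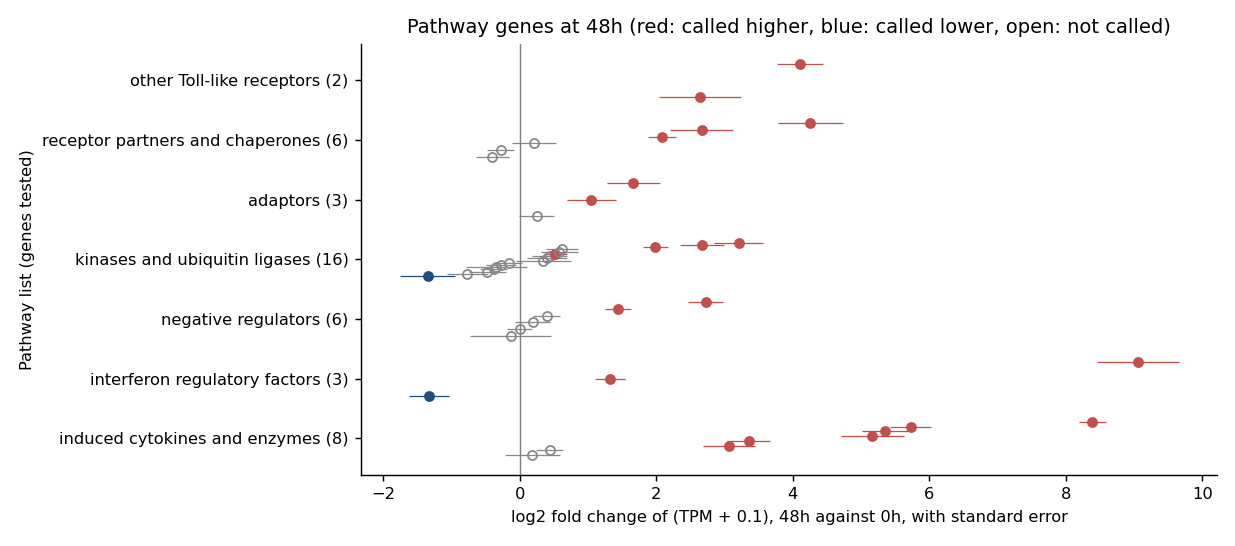
Log2 fold change of (TPM + 0.1) at 48h against 0h (horizontal axis, with standard error) for the 44 pathway genes tested, by list (vertical axis, number tested in brackets). Red points were called higher (21), blue lower (2) and open grey not called (21). For genes listed at 0 at 0h, among them Il1b, Il6, Cxcl10 and Tlr13, the position depends on the 0.1 added.

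All 3 interferon regulatory factors were called at 48h, 2 higher and 1 lower, against 15.9% and 27.2% of the genes tested. After scaling the counts were the same, against 24.5% and 22%. Irf7, which acts below TLR7 and TLR9, was at 0, 0.21 and 0.31 TPM at 0h, 3.43, 3.74 and 4.48 at 12h and 105.29, 108.25 and 165.50 at 48h (log2 fold change at 48h against 12h 4.96 ± 0.60, SE, adjusted p 9.7e-05, limma, Benjamini-Hochberg). Irf5, which acts below MYD88, was at 3.24, 3.88 and 4.67 TPM at 0h, 1.04, 0.88 and 0.99 at 1h, 7.02, 6 and 9.72 at 12h and 8.68, 9.33 and 11.77 at 48h. Like Tlr9 and Unc93b1 it was called lower at 1h (log2 fold change -1.90 ± 0.22, SE, adjusted p 2.0e-04) and higher at 48h (1.32 ± 0.22, SE, adjusted p 4.5e-04, limma, Benjamini-Hochberg). Irf3, which acts below TRIF, fell by 1.33 on the log2 scale at 48h (adjusted p 0.0027). Of 13 induced cytokines and enzymes, 8 were tested and 6 called higher at 48h, against 15.9% of the genes tested. After scaling it was 7, against 24.5%, when Tnf, named after its values were seen, was added (adjusted p 6.0e-04, limma, Benjamini-Hochberg). Of the 8, 4 were at 0 in each 0h library and could only rise, and 2 of the other 4 were called higher on the TPM. Il1b was listed at 0 at 0h and at 1.38, 1.51 and 1.32 TPM at 1h, 26.03, 20.42 and 33.55 at 12h and 28.96, 37.66 and 34.03 at 48h. Ptgs2, the cyclooxygenase COX-2, was at 0, 0.03 and 0.02 TPM at 0h and 6.27, 8.80 and 3.98 at 48h. Il6 and Cxcl10 were listed at 0 at 0h and 1h and reached 0.89 to 0.95 and 0.47 to 0.95 TPM at 48h. Both passed the filter only through these 48h libraries.

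Promoter Capture Hi-C was read on the HindIII fragments that hold a start site of each member (mm10). The lists held no replicate error, so the counts below carry no test. A contact is a fragment listed with that bait fragment, counted once. Of 23193 genes with such a bait the median was 5 contacts at each time point. At 12h, 2 members, Cd14 and Tlr2, had at least 5 contacts more than at 0h (12.2% of genes with a bait), and the same 2 at 48h (15.0%). At 1h none had (11.9%). At least 5 fewer contacts were listed for Tlr4, Tlr6 and Tlr9 at 1h (12.1% of genes), for Tlr6 at 12h (15.6%) and for Tlr4 and Tlr9 at 48h (16.0%). These counts, 2 of 10 and 3 of 10 at most, are near the background shares and are not read as a result about the members. The threshold of 5 was chosen after the values were seen.

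The Tlr2 bait (chr3:83840341-83843642) gained more contacts by 12h than that of any other member. It had 2, 3, 15 and 15 contacts at the successive time points. A gain of 13 or more from 0h was found in 1.97% of genes with a bait at 12h and in 3.96% at 48h. Within 100 kb upstream it had 0, 1, 8 and 11. Of the 15 contacts at 12h, 12 were listed again at 48h, which is 80% of each list, and the fragment with the start site of Mnd1, at -315 kb, was the contact listed at each time point. The 8 of 12h lay from -46.1 to -72.1 kb, and none of them held the start of a protein-coding gene. Those from -46.1 to -60.4 kb adjoin each other without a gap, so contacts counted 1 by 1 are not separate regions.

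The shortest of the Tlr2 contacts listed at both 12h and 48h, at -58.0 kb, was short enough to show whole. This fragment (chr3:83899696-83899932, plus strand, GRCm38.p6, 237 bases) overlapped no annotated exon.
Tlr2 contact: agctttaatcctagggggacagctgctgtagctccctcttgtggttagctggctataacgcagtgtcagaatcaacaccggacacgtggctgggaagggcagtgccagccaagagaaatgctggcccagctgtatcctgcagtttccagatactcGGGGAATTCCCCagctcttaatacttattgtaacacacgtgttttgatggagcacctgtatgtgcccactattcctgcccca
Its capitals are overlapping kappa B matches, as in the Tlr2 promoter window printed above, and it held no PU.1 or C/EBP core as searched. Of 659895 windows of the same length tiled over chromosome 3, 1.52% held a kappa B match, 1.37% a PU.1 core and 11.7% a C/EBP core. The fragment was picked for its length, and the match is a description of its letters.

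The Cd14 bait (chr18:36721620-36727279) had 5 contacts at 0h and at 1h, 10 at 12h and 17 at 48h. A gain of 5 or more at 12h was found in 12.2% of genes with a bait, and a gain of 12 or more at 48h in 4.59%. Upstream contacts numbered 0, 1, 5 and 5 at the successive time points, lying from -3.50 to -13.4 kb and including the start of Tmco6. The 5 of 12h and 48h are fragments that adjoin each other without a gap. Downstream contacts numbered 5, 4, 5 and 12. All 10 contacts of 12h were listed at 48h, where they made up 58.8% of the list. Of the 5 contacts of 0h, 4 were listed at 48h, and the fragment with the start of E230025N22Rik, at 26.1 kb, was listed at each time point.

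**Figure D4:**
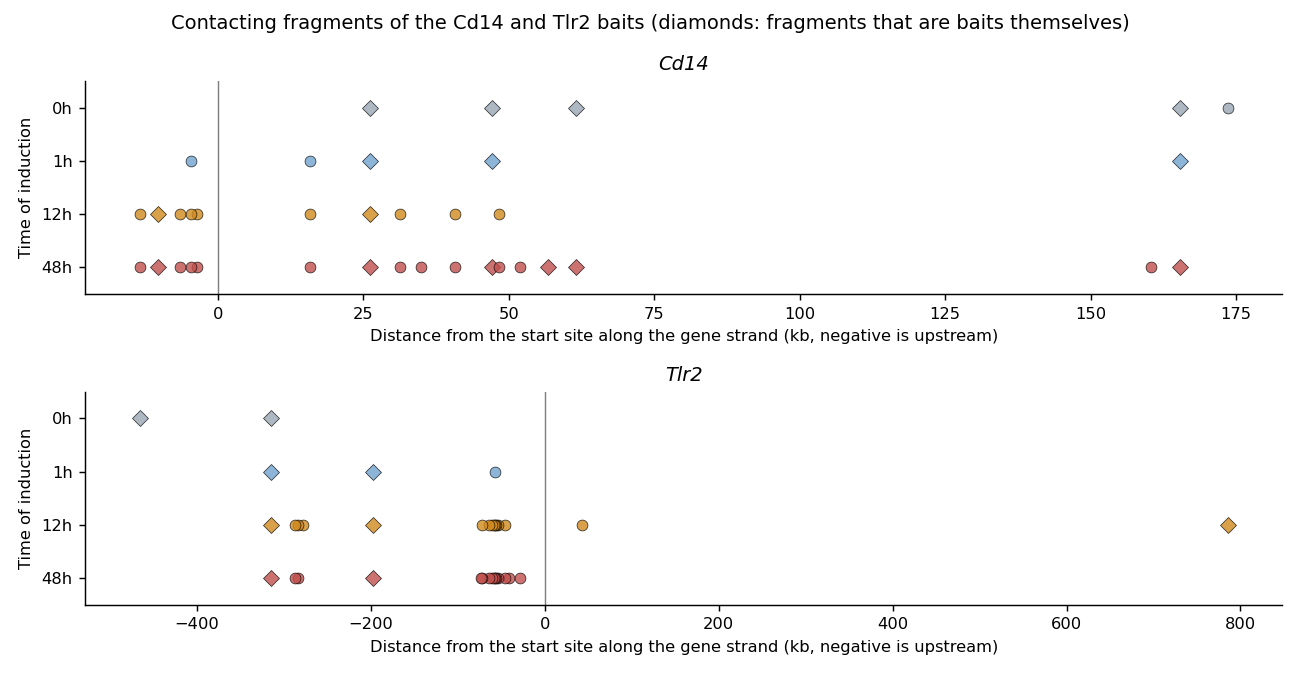
Distance of each contacting fragment from the start site along the gene strand (horizontal axis, kb, negative is upstream) for the Cd14 and Tlr2 baits at 0h, 1h, 12h and 48h (vertical axis). Circles are fragments and diamonds fragments that are themselves baits. Upstream of Cd14 there were 0, 1, 5 and 5 contacts over the 4 time points, and within 100 kb upstream of Tlr2 0, 1, 8 and 11.

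The other members gave no gain of this size. Ly96 had 1, 1, 5 and 5 contacts at 0h, 1h, 12h and 48h, but 1 of the 5 at 12h, the start of Ube2w, was listed at 48h. Tlr7 and Tlr8 had no listed contact until 12h and 2 each at 48h, where 30.5% of genes with a bait gained 2 or more. Tlr4 had 19, 9, 15 and 11 contacts, Tlr6 15, 9, 7 and 13, and Tlr9 19, 13, 16 and 14. Of the 0h contacts, 42.1% of those of Tlr4, 53.3% of those of Tlr6 and 52.6% of those of Tlr9 were listed at 48h. Myd88 had 4, 6, 1 and 3, on a bait that also holds the start site of Acaa1a. Tlr1 had 3, 0, 1 and 3 contacts. The baits of Tlr1 and Tlr6, neighbours on chromosome 5, were listed in contact with each other at 12h and 48h and not at 0h or 1h.

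**Figure D5:**
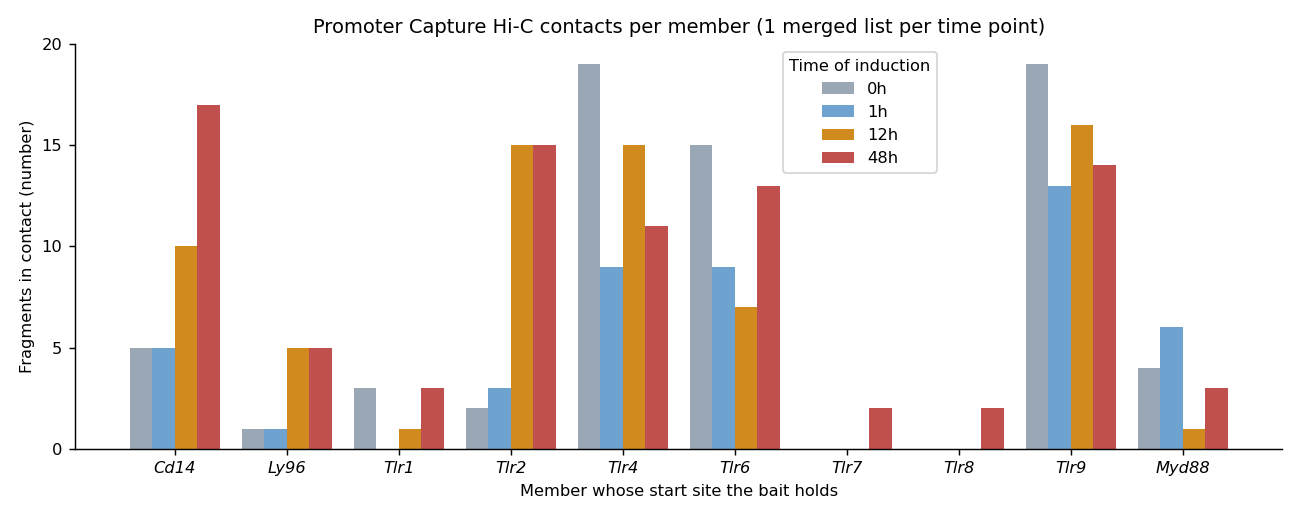
Number of fragments listed in contact with the bait of each member (vertical axis, from 0) at 0h, 1h, 12h and 48h (bars), from 1 merged list per time point. Tlr2 rose from 2 to 15 and Cd14 from 5 to 17 between 0h and 48h, while Tlr4 went from 19 to 11 and Tlr9 from 19 to 14.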

How the data were processed

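RNA-seq (12 libraries, 3 per time point) and Promoter Capture Hi-C (4 lists) were analysed, and Hi-C was left out. Before deposit of the RNA-seq table, the authors pooled technical replicates, trimmed reads (Trim Galore 0.6.2), mapped them to mm10 (HISAT2 2.1.0) and deposited TPM from RSEM. The count test of the methods could not be run, since TPM are not counts. The authors called Promoter Capture Hi-C interactions on 2 merged replicates with CHiCAGO, at a score of at least 5. The deposited 0h list gives this score, the later lists give whole numbers whose unit is not given in the sources used here, and neither was used beyond the fragment coordinates.

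The 16415 genes averaging 0.1 TPM or more were fitted on log2(TPM + 0.1) with limma 3.58.1 in R 4.3.3 (1 model of 4 time points, eBayes with trend, Benjamini-Hochberg over all genes, calls at an adjusted p under 0.05). Fold changes on this scale understate changes of low genes. Replicates measure the spread between cultures of 1 line. On simulated data, for 48h against 0h, the model recovered 21.2%, 76.2% and 97.5% of changes of 1, 2 and 4 on the log2 scale. The changed genes there averaged at least 1 TPM. The simulated spread of each gene was capped and no shift shared by the genes of a library was put in, so these rates may be too high for the data. A gene that is not called may still have changed. Contacts, promoters (RefSeq, GRCm38.p6), GENCODE M21 annotation and figures were handled in Python 3.11.15. Named genes are the 10 members, per pathway list the 2 called genes with the largest and the 2 with the smallest log2 fold change at 48h, and for each member the gene with the highest r among non-members averaging 1 TPM or more. Members and lists were chosen with earlier results of these data known. Alternatives varied scaling, pseudocount, filter, trend, libraries, replicate block and thresholds.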

Additional observations from a re-analysis of the deposited data

How the results depend on the processing

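Median-of-ratios scaling moved the number of members called higher at 48h against 12h from 3 to 7, the pathway genes higher at 1h from 18 to 6 and those lower at 48h from 2 to 1. It turned the log2 fold change at 48h against 12h of Cd14 to 0.62, of Tlr2 to 0.48 and of Myd88 to 0.48, and that of Ly96 at 12h against 0h to -0.18. With totals set without the 20 most abundant genes these 4 became 0.43, 0.29, 0.29 and -0.071, and 5 pathway genes were higher at 1h. In that setting Cd14 and Tlr2 were not called at 48h against 12h (adjusted p 0.085 and 0.37, limma, Benjamini-Hochberg). A filter at a mean TPM of 1 tested fewer members and left 5 higher at 48h against 0h and 1 at 48h against 12h. With a log2 fold change beyond 2, the members called higher were 2 at 12h against 0h and 2 at 12h against 1h, the pathway genes called higher were 4 at 1h and 9 at 12h, and 0 pathway genes were called lower at each time point. With only the 6 libraries compared, 1 pathway gene was lower at 48h, and Tlr6 at 12h lost its call against 0h (adjusted p 0.10, limma, Benjamini-Hochberg) and against 1h (0.052).

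Correlations of same-numbered deviations ran from -0.0123 to 0.257, and not every sample correlated best with its own number. Replicate 3 did so in every comparison (0.257, 0.0698, 0.255, 0.103 and 0.193), where the best other number gave -0.0941 to -0.011. For replicates 1 and 2 it varied between comparisons. The third replicates thus shared part of their deviations, and the cause of this was not tested. The replicate block changed 1 call of a member, Myd88 at 1h (adjusted p 0.053, limma, Benjamini-Hochberg). The replicate block with scaling gave 2 members lower at 1h (Tlr4 added, adjusted p 0.039, limma, Benjamini-Hochberg). It called Ly96 higher at 48h against 0h and against 12h (adjusted p 0.033 in both). At 48h against 12h it gave 7 higher, with Ly96 among them and without Tlr2 (adjusted p 0.061, limma, Benjamini-Hochberg). It also gave 6 pathway genes higher at 1h and the same 4 turned values (0.62, 0.48, 0.48 and -0.18).

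Leaving out each library in turn gave ranges of 2 to 3 members higher at 1h, 4 to 5 at 12h, 8 to 9 at 48h and 3 to 3 at 48h against 12h, and 1 to 3 pathway genes lower at 48h (1 without 0h replicate 1 or 48h replicate 1). Log2 fold changes that changed sign ranged from -0.35 to 0.038 (Cd14, 48h against 12h), -0.21 to 0.65 (Ly96, 12h against 0h), -0.17 to 1.26 (Tlr1, 1h against 0h), -0.32 to 1.30 (Tlr1, 12h against 1h) and -0.58 to 0.20 (Tlr4, 1h against 0h), none of them called in any of these fits. Tlr6 at 12h against 1h lost its call without 1h replicate 1 or 12h replicate 3, and Ly96 gained one there without 12h replicate 3.

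A threshold of 10 contacts in place of 5, chosen after seeing the data, left 1 member with more contacts at 12h, and 1, 0 and 0 members with fewer at the 3 time points. Counting neighbouring fragments could not change a count, since no member had a neighbouring bait to add. Keeping only distances under 1 Mb changed no member's count. Treating fragments within 10 kb as shared raised the Tlr2 contacts common to 12h and 48h from 12 to 13. The cause of these differences was not tested. Depth is unknown from TPM, so no counting error can be given for members near 0 TPM (Tlr1, Tlr7 and Tlr8).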
